A study of Daphnia magna with 9 samples.

Results

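Genes of the clotting, phenoloxidase, lectin and lysozyme branches of arthropod immunity were followed in *Daphnia magna*, a freshwater crustacean, by a rule on their names. A gene was a member when its name held proclotting, peroxinectin, C-type lectin, prophenoloxidase, hemocyanin or lysozyme, and each gene ID was counted once. This gave 83 of 42462 gene IDs: 45 C-type lectins, 24 peroxinectins, 10 proclotting enzymes and 4 lysozymes. The patterns prophenoloxidase and hemocyanin matched 0 names, so the phenoloxidase branch is represented here by the peroxinectins alone. The members were described in whole-body RNA of female daphnids at postnatal day 12, when the second clutch was released, with 5 individually cultured animals pooled in each library and the eggs removed.

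The study asked what the loss of DNMT3.1, a DNA methyltransferase 3 ortholog whose catalytic domain lacks most conserved motifs, changes when food is scarce. Starved daphnids received 8-fold fewer *Chlorella* cells per day than nutrient-rich ones. The 3 groups of 3 libraries were the starved wild type (strain NIES), the starved mutant and the nutrient-rich mutant. The mutant, DNMT3.1-/-, is a single line from 1 founder animal made with CRISPR/Cas, with frameshift indels and premature stop codons in both alleles, so that the difference between lines is that between 1 mutant line and 1 wild-type strain. The nutrient-rich wild type was not analysed here, and the response of the wild type to food could therefore not be compared with that of the mutant. DNMT3.1 itself (Dapma7bEVm006722t1) had 79.2 to 111 CPM in starved wild types, 40.0 to 87.6 in starved mutants and 4.40 to 10.8 in nutrient-rich mutants, and since the indels leave a transcript that can be counted, these levels do not check the labels of the lines.

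In crustaceans and other arthropods these proteins work mainly in the haemolymph. C-type lectins bind sugars and can recognise the surface of microbes, proclotting enzymes are serine proteases at the end of a cascade that gels the haemolymph of horseshoe crabs, and the phenoloxidase cascade makes melanin at wounds and around parasites. Peroxinectins are peroxidases first described as cell adhesion proteins of crayfish haemocytes and released together with prophenoloxidase. Lysozymes cut the peptidoglycan of bacterial cell walls, and both lysozymes and C-type lectins can also be made by gut or other tissues.

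Each library held 9270993 to 11806614 counted reads. Levels are given as CPM, the deposited counts scaled to library size (TMM), and levels of different genes are compared only as RPKM, the authors' values per length and library size. Nutrient-rich mutant replicate 2 stood apart: its TMM factor was 0.749 against 0.928 and 0.928 in the other nutrient-rich libraries, its 10 most abundant features took 19.5% of its counts against 11.7% and 12.9%, and its log2 CPM correlated at 0.893 and 0.908 with them, which correlated at 0.956 with each other. Food results of the members are therefore given with and without it. The counts were compared with edgeR's quasi-likelihood test in 18675 features, and a gene was called at an adjusted p under 0.05 with at least a 1.5-fold difference. All log2 fold changes are of the starved mutant over the other group, so a positive value is higher in starved mutants, and both comparisons share the starved mutant libraries. For the 3 libraries of a group the treatment was repeated, the days of these repeats are not given in the sources used here, and the p-values cover the spread among these libraries.

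The names were first set beside the gene ontology terms of the table. All 10 proclotting enzymes carried serine-type endopeptidase activity, 21 of 24 peroxinectins peroxidase activity and 4 of 4 lysozymes lysozyme activity. The lectins fell into very unlike parts. Of the 45, 26 shared the name C-type lectin domain family 4 member F, and of these 26 genes 21 were annotated with DNA integration or transposition, 24 with nucleic acid or DNA binding and 14 with aspartic-type endopeptidase activity, terms also carried by genes of transposable elements, while 19 carried carbohydrate binding. They were hardly transcribed: 7 had 0 counts in all 9 libraries, the median gene had 2.5 counts over all 9, and 1 of 26 passed the filter on low counts. Of the other 19 lectin genes 18 were annotated with carbohydrate binding and 16 could be tested. The tested genes were thus 48 of 83, namely 10 proclotting enzymes, 17 peroxinectins, 17 lectins and 4 lysozymes. The 35 members that could not be tested comprised 28 lectins and 7 peroxinectins, with at most 64 counts each over the 9 libraries.

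Levels per length spread widely within each family. The mean RPKM over 9 libraries ran from 1.41 to 362 in the lysozymes, of which 3 of 4 were above 100, from 0.35 to 109 in the proclotting enzymes and from 0 to 58.5 in the peroxinectins, of which 4 of 24 were at 10 or more. The lectins ranged from 0 to 392, with 4 of 45 at 100 or more. Of all 42462 genes, 943 reached 100 RPKM, and the median of the tested genes was 6.42. The most abundant members were the lectin Dapma7bEVm027719t1 with 392 RPKM and the lysozyme Dapma7bEVm006432t1 with 362.

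**Figure D1:**
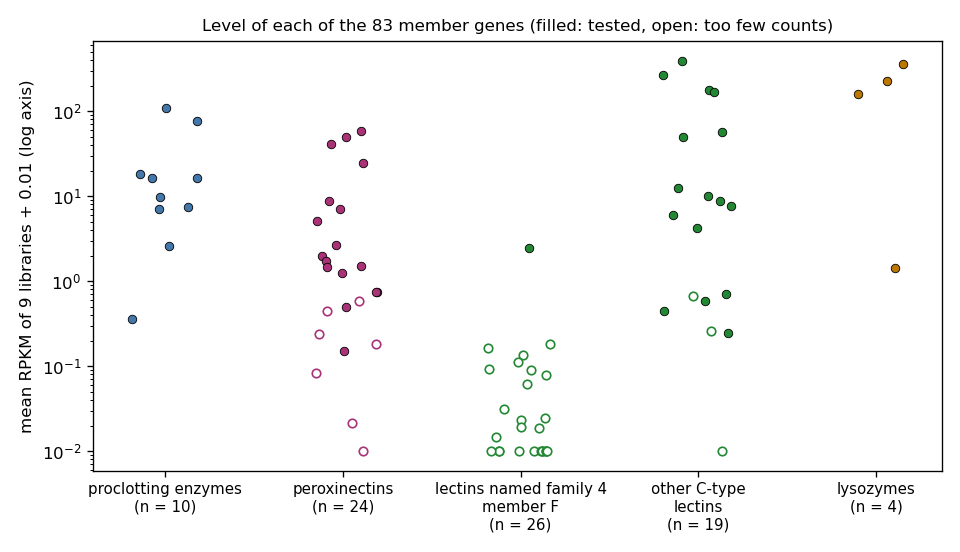
Level of each member gene, as the authors' RPKM averaged over 9 libraries plus 0.01 (log axis), by family, with filled points for genes that passed the filter on low counts and open points for those that did not. Of the 45 lectins 28 did not pass the filter, all of them under 1 RPKM, and 3 of 4 lysozymes are above 100 RPKM.

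Between the starved lines 7.16% of all tested features were called, 2.92% as higher and 4.24% as lower in the mutant. Of the 48 members 3 were called higher (1 lectin, 1 peroxinectin and 1 lysozyme) and 8 lower (4 proclotting enzymes, 2 peroxinectins and 2 lectins). Between starved and nutrient-rich mutants 23.1% were called, 11.1% as higher and 12.0% as lower under starvation. Of the members 7 were higher under starvation (4 lectins, 2 lysozymes and 1 peroxinectin) and 11 lower (6 lectins, 3 peroxinectins and 2 proclotting enzymes). The called proclotting enzymes were all lower and the called lysozymes all higher in starved mutants, and the lectins and peroxinectins were called in both directions. Scaling by library totals in place of TMM raised the median of all features from -0.0025 to 0.10 between the lines and from -0.07 to 0.30 between food levels, and turned the split of all food calls from 2078 higher and 2241 lower into 3446 and 1138. Under it 1 clotting gene was called higher and 0 lower between food levels, and the called lower peroxinectins fell from 2 and 3 to 0 in both comparisons.

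**Figure D2:**
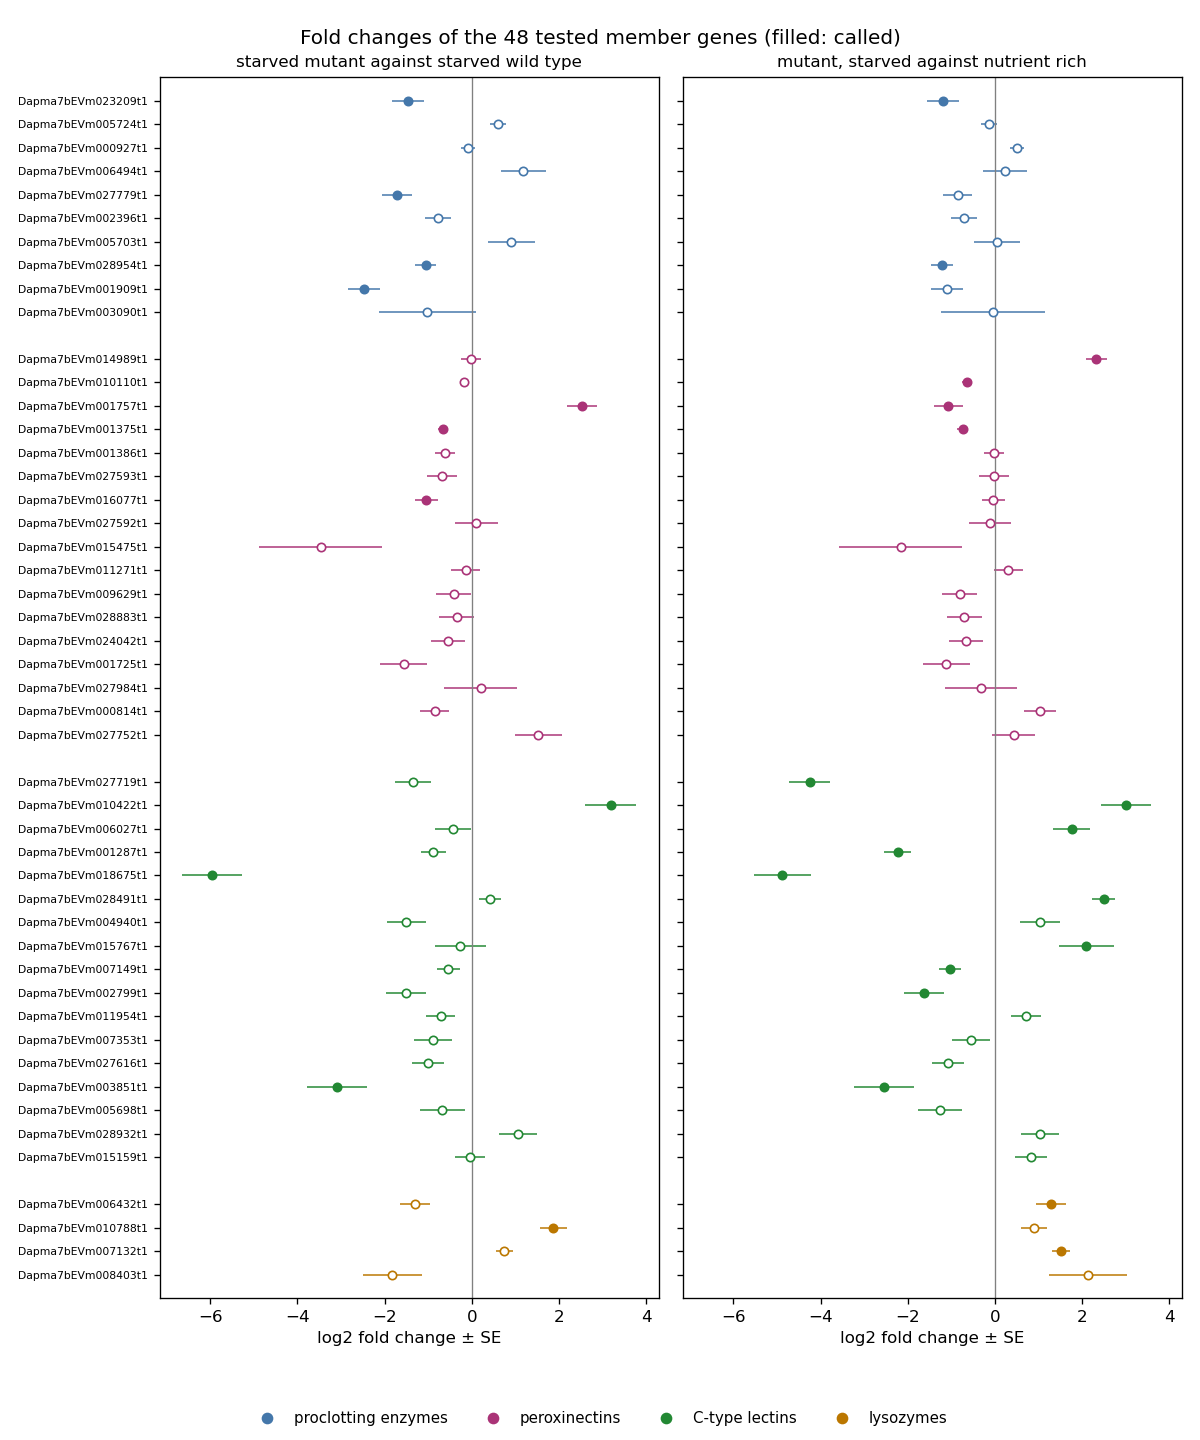
Log2 fold change of the 48 tested members with its standard error (bars), starved mutant against starved wild type (left) and mutant, starved against nutrient rich (right), with filled points for called genes. The lectins hold both the lowest value, -5.96, and the highest, 3.18, of the left panel, and called proclotting enzymes all lie below 0 in both panels.

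The C-type lectins, proteins with a calcium-dependent sugar-binding domain, held the lowest and the highest log2 fold change between the lines among the members. Between the lines 1 of 17 tested lectins was higher and 2 were lower, with a median log2 fold change of -0.71 (all tested genes: -0.0035). Between starved and nutrient-rich mutants 4 were higher and 6 lower, 58.8% of the tested lectins against 23.1% of all features in either direction, with a median of -0.55 (all tested genes: -0.07). The balance between directions depended on the scaling, with 7 higher and 4 lower and a median of -0.20 under library totals. Without nutrient-rich mutant replicate 2, 8 lectins were lower, and 2732 of all features (main result 2241). A single gene, Dapma7bEVm010422t1, was higher in the starved mutant in both comparisons, and 2 genes, Dapma7bEVm018675t1 and Dapma7bEVm003851t1, were lower in both.

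Dapma7bEVm018675t1, named C-type lectin isoform X1, was nearly absent from the starved mutant. It had 134, 120 and 152 CPM in starved wild-type replicates 1 to 3, 2.81, 1.23 and 2.50 in the starved mutants, and 16.8, 67.9 and 107 in the nutrient-rich mutants. Every starved mutant library lay below every library of both other groups, and the nutrient-rich mutants differed strongly among themselves. The log2 fold change was -5.96 (SE 0.68, edgeR adjusted p = 0.00161) against the starved wild type and -4.88 (SE 0.66, edgeR adjusted p = 0.00102) against the nutrient-rich mutant. Without nutrient-rich mutant replicate 2 these values were -5.96 (adjusted p = 0.00179) and -4.84 (adjusted p = 0.00152), and both calls held in all 17 alternatives of processing. The starved mutant counts behind them were 30, 16 and 29 reads.

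Dapma7bEVm010422t1, a lectin annotated as galactose binding and the second most abundant lectin with 262 RPKM, went the other way. Starved wild-type replicates 1 to 3 had 82.4, 67.0 and 98.2 CPM, starved mutants 480, 1009 and 760, and nutrient-rich mutants 30.7, 180 and 69.8. All 3 starved mutant libraries exceeded all 6 others. It was higher than in the starved wild type by a log2 fold change of 3.18 (SE 0.59, edgeR adjusted p = 0.0128) and higher than in nutrient-rich mutants by 3.01 (SE 0.58, edgeR adjusted p = 0.00566). Without nutrient-rich mutant replicate 2 the latter was 3.90 (adjusted p = 0.000468). The call between the lines was lost without any 1 starved wild-type library (adjusted p 0.0512 to 0.0720), while that between food levels held in all 17 alternatives.

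The third lectin called in both comparisons, Dapma7bEVm003851t1 (putative C-type lectin domain family 4 member D), was low. It had 3.88, 3.20 and 4.28 CPM in starved wild types, 0.94, 0.31 and 0.086 in starved mutants, and 1.09, 3.77 and 2.95 in nutrient-rich mutants, with 10, 4 and 1 reads in the starved mutants. The log2 fold changes were -3.09 (SE 0.68, edgeR adjusted p = 0.0269) and -2.54 (SE 0.69, edgeR adjusted p = 0.0250; without nutrient-rich mutant replicate 2, -2.19 and 0.0419). The first call was lost without any starved wild-type library or without starved mutant replicate 2 or 3 (adjusted p 0.0758 to 0.127), and the second without starved mutant replicate 2 or 3 or nutrient-rich replicate 3 (0.0587 to 0.0920).

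Dapma7bEVm027719t1, named after lectin 37Db of *Drosophila* and the most abundant member of all, was highest in the nutrient-rich mutants. It had 88.2, 117 and 58.5 CPM in starved wild types, 55.7, 15.7 and 32.2 in starved mutants, and 560, 780 and 627 in nutrient-rich mutants. The 3 groups did not overlap, with the starved mutant at the bottom. Starvation of the mutant went with a log2 fold change of -4.25 (SE 0.47, edgeR adjusted p = 0.000425; without nutrient-rich mutant replicate 2, -4.11 and 0.000473), a call that held in all 17 alternatives. Between the lines it was -1.35 (SE 0.42, edgeR adjusted p = 0.0968) and was not called.

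The lectins named C-type lectin domain family 4 member E showed that a shared name did not mean a shared direction. Of 6 genes of this name 4 were tested, and 3 of these, Dapma7bEVm006027t1, Dapma7bEVm001287t1 and Dapma7bEVm015767t1, are on scaffold 1361. Dapma7bEVm006027t1 had 289, 423 and 168 CPM in starved wild types, 331, 122 and 205 in starved mutants, and 46.7, 77.2 and 69.7 in nutrient-rich mutants. It was higher in starved than in nutrient-rich mutants by a log2 fold change of 1.76 (SE 0.42, edgeR adjusted p = 0.0152; without nutrient-rich mutant replicate 2, 1.91 and 0.0184). Between the starved lines its libraries overlapped (log2 fold change -0.42, adjusted p = 0.671). Without starved mutant replicate 1 or nutrient-rich replicate 1 the food call was narrowly missed (adjusted p 0.0518 and 0.0524).

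Dapma7bEVm001287t1, on the same scaffold, ran against it. Its levels were 166, 194 and 130 CPM in starved wild types, 124, 56.1 and 86.5 in starved mutants, and 333, 527 and 392 in nutrient-rich mutants, with no overlap between any groups. It was lower in starved mutants by a log2 fold change of -2.23 (SE 0.31, edgeR adjusted p = 0.00112), or -2.03 (adjusted p = 0.00130) without nutrient-rich mutant replicate 2, and this call held in all 17 alternatives. Against the starved wild type the value was -0.88 (SE 0.30, adjusted p = 0.123).

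The third gene of scaffold 1361, Dapma7bEVm015767t1, had 12.1, 29.4 and 10.1 CPM in starved wild types, 22.8, 7.55 and 12.5 in starved mutants and 3.77, 1.01 and 5.05 in nutrient-rich mutants. Its libraries separated by food (log2 fold change 2.10, SE 0.64, edgeR adjusted p = 0.0396) and overlapped between the lines (-0.27, adjusted p = 0.867). This call was lost without nutrient-rich mutant replicate 2 (1.68, adjusted p = 0.0648) and likewise without starved wild-type replicate 1, starved mutant replicate 1 or 3 or nutrient-rich replicate 1 (adjusted p up to 0.130). The remaining tested gene of the name, Dapma7bEVm002799t1 on scaffold 626, had 12.9, 18.2 and 8.27 CPM in starved wild types, 8.07, 2.00 and 3.80 in starved mutants, and 15.8, 12.9 and 13.9 in nutrient-rich mutants. It was lower in starved than in nutrient-rich mutants by -1.63 (SE 0.46, edgeR adjusted p = 0.0309; without nutrient-rich mutant replicate 2, -1.70 and 0.030). The call was lost without starved wild-type replicate 1, starved mutant replicate 2 or 3 or nutrient-rich replicate 1 or 3 (adjusted p 0.0537 to 0.112). Whether genes of this name share reads was not checked.

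Selectin-like lectin Dapma7bEVm028491t1 was low in the nutrient-rich mutants. Starved wild-type libraries had 69.3, 74.1 and 56.7 CPM, starved mutants 83.2, 92.2 and 90.5, and nutrient-rich mutants 20.6, 9.18 and 17.2. In the mutant it was higher under starvation by a log2 fold change of 2.49 (SE 0.27, edgeR adjusted p = 0.000369; without nutrient-rich mutant replicate 2, 2.22 and 4.13e-05), a call held in all 17 alternatives, and between the lines it differed by 0.41 (SE 0.25, adjusted p = 0.438). The sixth lectin lower under starvation, Dapma7bEVm007149t1 (C-type lectin domain family 6 member A), was chosen after its values were seen. It had 7.66, 10.2 and 6.85 CPM in starved wild types, 6.29, 4.47 and 6.30 in starved mutants and 9.03, 14.7 and 11.2 in nutrient-rich mutants. The log2 fold change was -1.03 (SE 0.26, edgeR adjusted p = 0.0180), and -0.83 (adjusted p = 0.0225) without nutrient-rich mutant replicate 2. It was not called without starved mutant replicate 2 (adjusted p = 0.0706) or with library totals as scaling (0.0694). The 7 lectins called in neither comparison had log2 fold changes between food levels of -1.26 to 1.03.

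**Figure D3:**
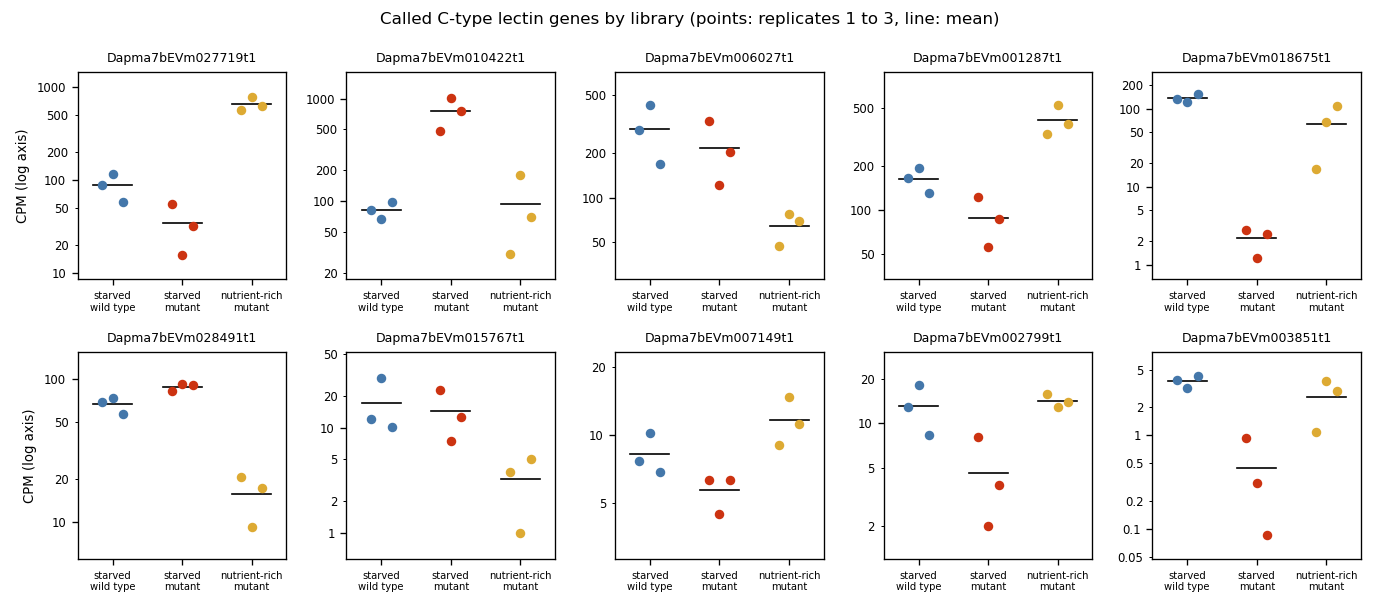
Level of the 10 lectin genes called in at least 1 comparison, in CPM (log axis, scaled apart in each panel), for replicates 1 to 3 of each group from left to right, with the group mean as a line. Dapma7bEVm018675t1 drops to 1.23 to 2.81 CPM in the starved mutant alone, Dapma7bEVm010422t1 reaches 480 to 1009 CPM there, and Dapma7bEVm027719t1 reaches 560 to 780 CPM in nutrient-rich mutants.

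As a summed level the lectins hid these changes. The 45 lectin genes together took 727 to 1108 CPM in starved wild types, 1148 to 1337 in starved mutants and 1062 to 1695 in nutrient-rich mutants. In the starved mutant Dapma7bEVm010422t1 alone gave 480 to 1009 CPM of that sum. The number of lectins lower between the lines was 1 without any starved wild-type library or without starved mutant replicate 2 or 3, and 5 without starved mutant replicate 1. The number higher was 0 without any 1 starved wild-type library and 2 without starved mutant replicate 1 or nutrient-rich replicate 2. Between food levels 2 were higher without starved mutant replicate 1 or nutrient-rich replicate 1, and 3 were lower without starved mutant replicate 2. The counts over all features shifted too. Between the lines 356 to 473 were lower and 220 to 279 higher without a starved wild-type library (main result 791 and 546). Without starved mutant replicate 2 or 3, 391 and 285 were lower. Without its replicate 1, 1045 were lower and 596 higher, and without nutrient-rich replicate 2, 1206 were higher. Between food levels 1682 and 1860 were higher (main result 2078) and 1660 lower (2241).

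The proclotting enzymes held 4 of the 8 members called lower between the starved lines. These proteases resemble the enzyme that cuts coagulogen into coagulin in horseshoe crabs, and for their *Daphnia* relatives the role is taken from the name alone. Of 10 genes 4 were lower and 0 higher than in starved wild types, against 4.24% lower among all features, with a median log2 fold change of -0.90. At an unadjusted p under 0.05, 7 of 10 differed, and DESeq2 called 1 higher and 4 lower. Among all features DESeq2 called 788 higher and 1329 lower between the lines, against 546 and 791 by edgeR. Between food levels it called 2309 higher and 2457 lower, against 2078 and 2241 by edgeR. The share of all features at an unadjusted p under 0.05 was not counted. Counts at that level, here and below, therefore have no background and are not a result about a family. Between food levels edgeR called 2 lower and 0 higher (6 at an unadjusted p under 0.05, and 3 lower and 0 higher by DESeq2), with a median of -0.42 that was -0.04 with library totals as scaling. The whole family summed to 596 to 657 CPM in starved wild types, 308 to 466 in starved mutants and 560 to 595 in nutrient-rich mutants, with the starved mutant below both other groups in every library. Dapma7bEVm023209t1 and Dapma7bEVm027779t1 together summed to 418 to 454 CPM in starved wild types, 76.4 to 231 in starved mutants and 234 to 404 in nutrient-rich mutants. By itself Dapma7bEVm027779t1 overlapped between the mutant groups. The other 8 genes summed to 176 to 203 CPM in starved wild types, 229 to 235 in starved mutants and 191 to 327 in nutrient-rich mutants, so that here the starved mutant was above the starved wild type. Those 2 genes were set apart because they were called lower between the lines and had at least 10 RPKM. The sum of the rest depends on that choice, and it includes the other genes called lower, which are less abundant.

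Of the 10 genes 5 are on scaffold 872, and 3 of these 5 were lower than in the starved wild type. Among the other 73 tested genes of that scaffold 6 were lower and 3 higher, with a median log2 fold change of -0.04. The most abundant of the 5, Dapma7bEVm023209t1 with 109 RPKM, had 338, 369 and 340 CPM in starved wild-type replicates 1 to 3, 194, 63.2 and 125 in the starved mutants, and 349, 202 and 322 in the nutrient-rich mutants. Starved mutant libraries were below all others, replicate 2 farthest. It was lower by -1.45 (SE 0.37, edgeR adjusted p = 0.0458) on the log2 scale between the lines and by -1.19 (SE 0.36, edgeR adjusted p = 0.0400) between food levels, the latter -1.40 (adjusted p = 0.0175) without nutrient-rich mutant replicate 2. Each call was lost without any 1 library except starved mutant replicate 1 and nutrient-rich mutant replicate 2 (adjusted p up to 0.170 and 0.117), and with library totals as scaling (0.0859 and 0.141).

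Dapma7bEVm027779t1, on the same scaffold and with 16.4 RPKM, had 80.0, 84.7 and 79.5 CPM in starved wild types, 37.2, 13.2 and 24.0 in starved mutants and 54.8, 31.8 and 48.0 in nutrient-rich mutants. Both mutant groups were below every wild-type library, and they overlapped with each other. The log2 fold change between the lines was -1.72 (SE 0.34, edgeR adjusted p = 0.0185) and was not past the threshold without any 1 starved wild-type library or starved mutant replicate 3 (adjusted p 0.0552 to 0.0917). Between food levels it was -0.86 (SE 0.34, adjusted p = 0.0977), and -1.06 (adjusted p = 0.0386) without nutrient-rich mutant replicate 2.

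Dapma7bEVm001909t1 held the largest clotting difference. It had 9.71, 12.2 and 12.4 CPM in starved wild types, 3.38, 1.08 and 1.73 in starved mutants, and 4.86, 3.90 and 4.42 in nutrient-rich mutants, 3 groups without overlap. The log2 fold change was -2.48 (SE 0.37, edgeR adjusted p = 0.00513) between the lines, a call held in all 17 alternatives, and -1.10 (SE 0.37, adjusted p = 0.0580) between food levels, where it was called without nutrient-rich mutant replicate 2 (-1.19, adjusted p = 0.0455). The other genes of the scaffold were not called. Dapma7bEVm002396t1 and Dapma7bEVm003090t1, chosen after their values were seen, had log2 fold changes between the lines of -0.78 (adjusted p = 0.180) and -1.02 (adjusted p = 0.714), the latter from 0, 0 and 18 reads in starved mutants. Whether these 5 genes of 1 name on 1 scaffold share reads was not checked.

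Outside scaffold 872, Dapma7bEVm028954t1 on scaffold 7 was lower in the starved mutant in both comparisons. It had 11.5, 10.5 and 10.7 CPM in starved wild types, 6.29, 4.54 and 4.92 in starved mutants and 14.1, 8.30 and 14.1 in nutrient-rich mutants. The log2 fold changes were -1.06 (SE 0.24, edgeR adjusted p = 0.0321) and -1.22 (SE 0.24, edgeR adjusted p = 0.00642; without nutrient-rich mutant replicate 2, -1.43 and 0.000379). The first was lost without any starved wild-type library or without starved mutant replicate 2 or 3 (adjusted p 0.0827 to 0.142), and with library totals as scaling (0.0966). The second held without each library in turn and was lost with library totals as scaling (adjusted p = 0.0528).

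Other abundant clotting genes were not called, and each was higher in the starved mutant in a single comparison. Dapma7bEVm005724t1, the second in level with 76.7 RPKM, had 63.3, 75.3 and 52.7 CPM in starved wild types, 96.9, 99.9 and 94.9 in starved mutants, and 93.5, 133 and 93.0 in nutrient-rich mutants. Its log2 fold change between the lines was 0.61 (SE 0.18, edgeR adjusted p = 0.0831), and 0.62 (adjusted p = 0.0108) without nutrient-rich mutant replicate 2, a library outside that comparison that enters the shared estimate of the spread. Between food levels its value was -0.13 (edgeR adjusted p = 0.652). Dapma7bEVm000927t1 on scaffold 2140 had 45.3 to 54.0 CPM in starved wild types, 37.2 to 53.1 in starved mutants and 30.3 to 35.2 in nutrient-rich mutants. It was above the nutrient-rich mutant in each starved mutant library (log2 fold change 0.50, SE 0.16, edgeR adjusted p = 0.0488), which is under the 1.5-fold limit of a call. Between the lines its value was -0.09 (edgeR adjusted p = 0.838).

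A single library set the picture of another 2 genes, Dapma7bEVm006494t1 and Dapma7bEVm005703t1, chosen after their values were seen. The first had 23.0, 25.4 and 24.6 CPM in starved wild types, 46.9, 66.1 and 52.1 in starved mutants, and 21.9, 96.9 and 23.1 in nutrient-rich mutants. The second had 6.84, 4.70 and 6.28, then 9.76, 12.7 and 11.0, then 5.76, 22.3 and 4.53 CPM in the same order. In both, the starved mutants were above the starved wild type and nutrient-rich mutant replicate 2 was above every other library. The log2 fold changes between the lines were 1.18 (SE 0.52, edgeR adjusted p = 0.251) and 0.91 (SE 0.53, adjusted p = 0.419), and those between food levels 0.22 (adjusted p = 0.792) and 0.05 (adjusted p = 0.957). Without nutrient-rich mutant replicate 2 both genes were called higher in the starved mutant in both comparisons, with 1.19 (adjusted p = 0.00127) and 0.92 (0.0141) between the lines and 1.29 (0.000429) and 1.11 (0.00545) between food levels.

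**Figure D4:**
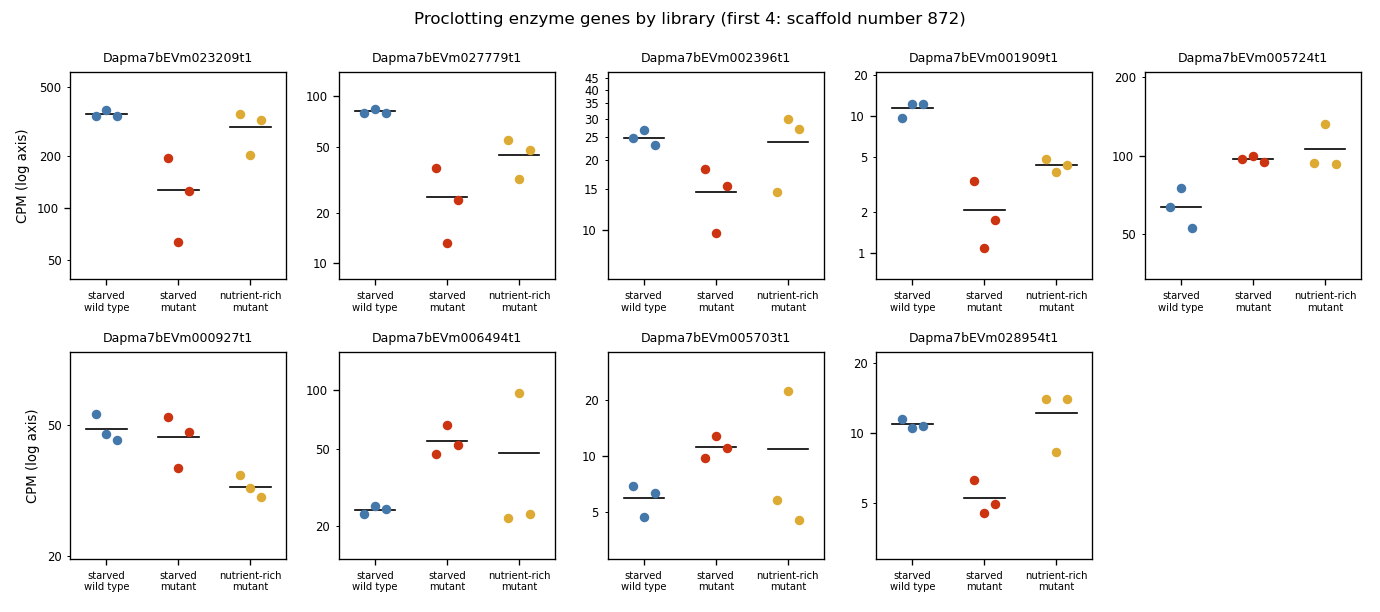
Level of the 9 proclotting enzyme genes with reads in every library, in CPM (log axis, scaled apart in each panel), for replicates 1 to 3 of each group from left to right, with the group mean as a line, the first 4 panels being genes of scaffold 872. Starved mutants lie lowest for the scaffold genes Dapma7bEVm023209t1 and Dapma7bEVm001909t1, and nutrient-rich mutant replicate 2 lies alone at the top for Dapma7bEVm006494t1 and Dapma7bEVm005703t1.

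The number of clotting genes lower between the lines was 1 without any 1 starved wild-type library and 2 without starved mutant replicate 2 or 3. All features lower between the lines fell from 791 to between 356 and 473 without a starved wild-type library, and to 391 and 285 without those mutants. The shift of the family is therefore not a result about the family. Between food levels the number of clotting genes lower was 1 without any starved wild-type library, starved mutant replicate 2 or nutrient-rich replicate 3. It was 4 without starved mutant replicate 1 or nutrient-rich replicate 2, and without the latter 3 were higher between the lines and 2 between food levels. Of all features, 2241 were lower between food levels in the main result and 1993 to 2064 without a starved wild-type library. For the other libraries, in the order named, the counts were 1660, 2158, 2043 and 2732. Without nutrient-rich replicate 2, 1206 features were higher between the lines (main result 546) and 2778 between food levels (2078).

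Peroxinectins were mostly low in level and mostly not called. Of 17 tested genes 1 was higher and 2 were lower than in the starved wild type (8 at an unadjusted p under 0.05), against 2.92% higher and 4.24% lower among all features, with a median log2 fold change of -0.42. Between food levels 1 was higher and 3 lower, 23.5% of the tested peroxinectins and close to the 23.1% of all features, with a median of -0.32. The 3 most abundant genes each had a pattern of its own.

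Dapma7bEVm014989t1, the most abundant peroxinectin with 58.5 RPKM, was likewise low in the nutrient-rich mutants. It had 53.3, 58.0 and 45.5 CPM in starved wild types, 58.4, 44.0 and 52.2 in starved mutants, and 10.7, 6.79 and 13.2 in nutrient-rich mutants. The starved groups overlapped and both were far above the nutrient-rich mutants. In the mutant the log2 fold change with starvation was 2.33 (SE 0.24, edgeR adjusted p = 0.000319; without nutrient-rich mutant replicate 2, 2.10 and 9.48e-05), held in all 17 alternatives, and between the lines it was -0.02 (SE 0.22, adjusted p = 0.978).

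Dapma7bEVm001757t1 on scaffold 3147, which holds 7 peroxinectins, was the only member called in opposite directions in the comparisons. Starved wild-type replicates 1 to 3 had 23.9, 13.5 and 28.9 CPM, starved mutants 145, 100 and 137, and nutrient-rich mutants 323, 161 and 317. The groups formed a ladder with no overlap, wild type lowest. Against the starved wild type the log2 fold change was 2.53 (SE 0.35, edgeR adjusted p = 0.00354), a call held in all 17 alternatives. Against the nutrient-rich mutant it was -1.07 (SE 0.33, edgeR adjusted p = 0.0428; without nutrient-rich mutant replicate 2, -1.33 and 0.00628). The second call was lost without starved wild-type replicate 1, any starved mutant or nutrient-rich replicate 1 or 3 (adjusted p 0.0691 to 0.140) and with library totals as scaling (0.182). Of the other 69 tested genes of scaffold 3147, 2 were higher and 4 lower between the lines.

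The replicates of another abundant peroxinectin, Dapma7bEVm010110t1, lay close together. It had 143, 140 and 135 CPM in starved wild types, 124, 126 and 122 in starved mutants and 209, 182 and 191 in nutrient-rich mutants. It was lower in starved than in nutrient-rich mutants by -0.64 on the log2 scale (SE 0.11, edgeR adjusted p = 0.00290; without nutrient-rich mutant replicate 2, -0.69 and 0.000367), and differed by -0.17 between the lines (adjusted p = 0.468). With library totals as scaling the food call was lost (adjusted p = 0.180).

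Lower in the starved mutant in both comparisons was Dapma7bEVm001375t1 on scaffold 2452, with 98.6, 111 and 109 CPM in starved wild types, 73.2, 63.6 and 65.8 in starved mutants and 123, 106 and 109 in nutrient-rich mutants. The changes were small and the replicates close, with log2 fold changes of -0.66 (SE 0.12, edgeR adjusted p = 0.0124) and -0.74 (SE 0.12, edgeR adjusted p = 0.00247; without nutrient-rich mutant replicate 2, -0.78 and 0.000701). The first was lost without starved wild-type replicate 2 or 3 or starved mutant replicate 2 or 3 (adjusted p 0.0550 to 0.0787), and both were lost with library totals as scaling (0.0668 and 0.0926). Dapma7bEVm016077t1 on scaffold 725 had 9.09, 10.8 and 11.0 CPM in starved wild types, 5.82, 4.39 and 4.75 in starved mutants and 6.25, 3.27 and 5.79 in nutrient-rich mutants. Here both mutant groups were below the wild type. The log2 fold change between the lines was -1.05 (SE 0.26, edgeR adjusted p = 0.0450), lost without any starved library or nutrient-rich replicate 3 (adjusted p 0.0530 to 0.182), and that between food levels -0.04 (adjusted p = 0.930). The call between the lines was also lost with library totals (0.116), without the filter (0.0581), with the replicate block (0.0747) and with RPKM (limma adjusted p = 0.0722).

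Dapma7bEVm015475t1 on scaffold 1253, chosen after its values were seen, was not called and had reads in some libraries only. Its counts were 165, 104 and 175 reads in starved wild types, 0, 49 and 0 in starved mutants, and 51, 0 and 119 in nutrient-rich mutants. The log2 fold change between the lines was -3.47 (SE 1.42, edgeR adjusted p = 0.215), and the gene was called lower without nutrient-rich mutant replicate 2 (-3.44, adjusted p = 0.0459). The other 7 peroxinectins of the 24 had too few reads to be tested. The number of peroxinectins lower between the lines fell to 0 without starved wild-type replicate 2 or 3 or starved mutant replicate 2 or 3, and to 1 without replicate 1 of either group. Between food levels 5 were lower without nutrient-rich mutant replicate 2, and 2 were higher without nutrient-rich mutant replicate 3. Of all features, 369, 473, 391 and 285 were lower between the lines without starved wild-type replicate 2 or 3 or starved mutant replicate 2 or 3 (main result 791). The count was 356 without wild-type replicate 1 and 1045 without starved mutant replicate 1. Between food levels 2732 features were lower (main result 2241) and 1877 higher (2078) in the 2 settings named.

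All 4 lysozymes had higher values in the starved than in nutrient-rich mutants, and 2 of them were called, with a median log2 fold change of 1.40. Their sum was 702 to 938 CPM in starved wild types, 753 to 786 in starved mutants and 303 to 388 in nutrient-rich mutants. Between the lines 1 was called higher and 0 lower (all 4 at an unadjusted p under 0.05, and DESeq2 called 2 higher and 1 lower), with a median of -0.28. The sums of the starved groups overlapped, while single genes differed in both directions.

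Dapma7bEVm010788t1 on scaffold 2190, where both genes named Lysozyme 2 lie, had 96.6, 74.0 and 105 CPM in starved wild types, 206, 450 and 347 in starved mutants, and 139, 239 and 162 in nutrient-rich mutants. Both mutant groups were above the wild type. It was higher between the lines by a log2 fold change of 1.86 (SE 0.31, edgeR adjusted p = 0.00856), held in all 17 alternatives. Between food levels the value was 0.89 (SE 0.30, adjusted p = 0.0597), and 1.15 (adjusted p = 0.0190) without nutrient-rich mutant replicate 2.

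Dapma7bEVm007132t1, the other Lysozyme 2, had 105, 113 and 114 CPM in starved wild types, 166, 204 and 185 in starved mutants, and 73.8, 45.0 and 75.2 in nutrient-rich mutants. The starved mutants were highest in every library. The log2 fold change was 1.52 between food levels (SE 0.20, edgeR adjusted p = 0.000906; without nutrient-rich mutant replicate 2, 1.31 and 8.23e-05), held in all 17 alternatives, and 0.74 between the lines (SE 0.19, adjusted p = 0.0532), which was called without nutrient-rich mutant replicate 2 (0.75, adjusted p = 0.00167).

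Dapma7bEVm006432t1, on scaffold 115 and the most abundant lysozyme, was highest in the wild type. Its levels were 591, 747 and 482 CPM in starved wild types, 387, 131 and 220 in starved mutants, and 89.8, 103 and 110 in nutrient-rich mutants. No groups overlapped. Between food levels the log2 fold change was 1.28 (SE 0.35, edgeR adjusted p = 0.0253; without nutrient-rich mutant replicate 2, 1.30 and 0.0386), lost without starved mutant replicate 1 or 3 or nutrient-rich replicate 1 or 3 (adjusted p 0.0558 to 0.0754). Between the lines it was -1.30 (SE 0.35, adjusted p = 0.0561), and -1.29 (adjusted p = 0.0384) without nutrient-rich mutant replicate 2. The fourth lysozyme, Dapma7bEVm008403t1 on the same scaffold, was named outside the rule and after its values were seen. It was low, with 1.41 RPKM, and was not called. Its log2 fold changes were 2.13 between food levels and -1.82 between the lines. From RPKM the value between food levels was 2.26 (limma adjusted p = 0.045). The number of lysozymes higher between food levels was 1 without starved mutant replicate 3 or nutrient-rich replicate 1 or 3, and 3 without nutrient-rich mutant replicate 2. Between the lines 2 were higher and 1 lower without nutrient-rich mutant replicate 2, and 1 was lower without starved mutant replicate 1. Of all features, 1394, 1860 and 1877 were higher between food levels without starved mutant replicate 3 or nutrient-rich replicate 1 or 3 (main result 2078). The count was 2778 without nutrient-rich replicate 2, where 1206 were higher and 1472 lower between the lines (main result 546 and 791). Without starved mutant replicate 1, 1045 were lower between the lines.

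**Figure D5:**
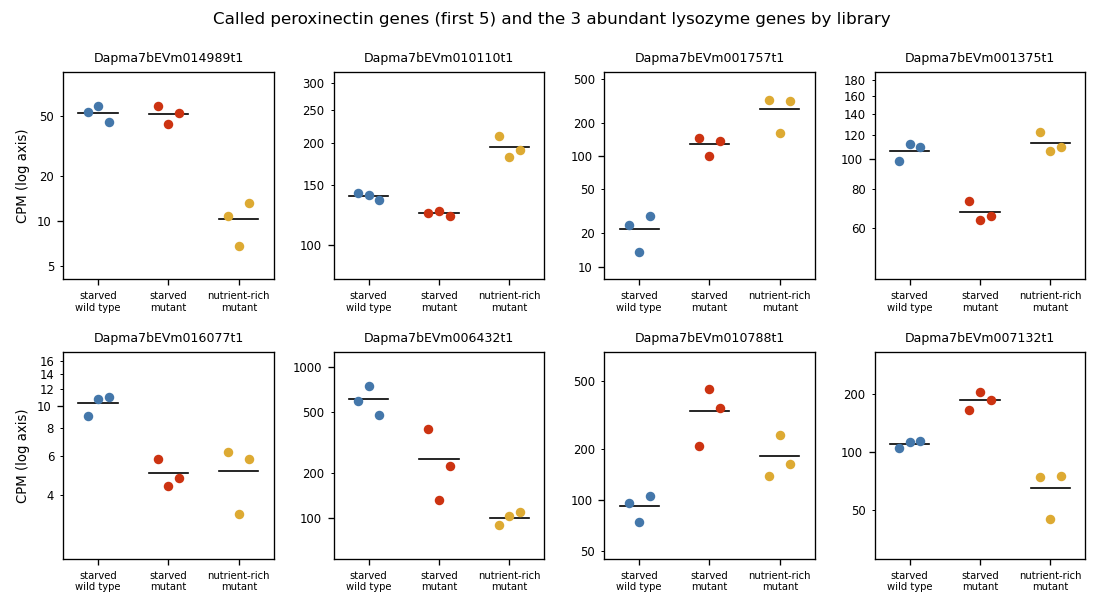
Level of the 5 called peroxinectin genes (first 5 panels) and the 3 abundant lysozyme genes (last 3), in CPM (log axis, scaled apart in each panel), for replicates 1 to 3 of each group from left to right, with the group mean as a line. Dapma7bEVm014989t1 is low only in nutrient-rich mutants (6.79 to 13.2 CPM), and Dapma7bEVm001757t1 climbs from 13.5 to 28.9 CPM in the starved wild type to 161 to 323 in nutrient-rich mutants.

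Separation of the replicates by itself said little about a member. The groups of the line comparison did not overlap for 41.2% of all tested features, in either direction, and for 12 of 17 lectins, 8 of 10 proclotting enzymes, 9 of 17 peroxinectins and 3 of 4 lysozymes. In the food comparison they did not overlap for 40.3% of all features and for 14, 4, 5 and 3 members of the same families. The starved mutants also differed from each other in the size of their change. Of the 8 members called lower between the lines, starved mutant replicate 2 was the farthest from the wild type in 7, and of the 3 called higher it was the farthest in 2. This order was not counted over all called features. The members share the same libraries, so it describes the libraries and is not a result about the members.

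Other steps of these pathways were counted from lists defined by gene name, to be read against 7.16% of all features called between the lines and 23.1% between food levels. DESeq2 called 788 of all features higher and 1329 lower between the lines, and 2309 higher and 2457 lower between food levels. Of 21 food calls of the pathway genes named here 19 held without nutrient-rich mutant replicate 2. Of 7 tested recognition proteins for glucan and peptidoglycan, edgeR called 2 lower and 0 higher between the lines (3 at an unadjusted p under 0.05, 3 lower and 0 higher by DESeq2), and 1 higher and 0 lower between food levels (2 at an unadjusted p under 0.05, 1 in each direction by DESeq2). The β-glucan-binding protein precursor Dapma7bEVm009630t1, of a family that triggers the phenoloxidase cascade in crayfish, had 865 to 981 CPM in starved wild types, 260 to 449 in starved mutants and 441 to 616 in nutrient-rich mutants (log2 fold change between the lines -1.41, SE 0.21, edgeR adjusted p = 0.00556). A second β-glucan-binding protein, Dapma7bEVm002421t1, was lower by -1.77 (adjusted p = 0.0494), lost without any 1 library except starved mutant replicate 1 and nutrient-rich mutant replicate 2 (adjusted p up to 0.20). Library totals (0.076), RLE factors (0.052) and RPKM (limma adjusted p = 0.058) also ended this call. Gram-negative binding protein 1 (Dapma7bEVm002394t1) was higher in starved than in nutrient-rich mutants by 1.12 (adjusted p = 0.00630).

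Of 6 tested proteases named after coagulation factor X or of like kind, edgeR called 4 lower and 0 higher between the lines and 5 lower and 0 higher between food levels (DESeq2 called 5 lower and 0 higher in each, and 5 had an unadjusted p under 0.05 in each). Coagulation factor X is a vertebrate protease, and in *Daphnia* the name marks likeness alone. They summed to 490 to 530 CPM in starved wild types, 130 to 276 in starved mutants and 360 to 412 in nutrient-rich mutants. The genes named next gave little of this sum. Dapma7bEVm001200t1, Dapma7bEVm001202t1 and Dapma7bEVm000197t1 had means of 1.55, 1.36 and 13.2 CPM in starved wild types, and the more abundant genes of the list are not described here. Dapma7bEVm001200t1, on scaffold 1253, had 13, 21 and 13 reads in starved wild types, 0, 2 and 2 in starved mutants, and 9, 9 and 11 in nutrient-rich mutants (log2 fold changes -3.65, edgeR adjusted p = 0.00897, and -3.10, adjusted p = 0.00729). Dapma7bEVm001202t1, on the same scaffold, had 16, 12 and 13 reads in starved wild types, 1, 0 and 0 in starved mutants and 5, 30 and 32 in nutrient-rich mutants (edgeR adjusted p = 0.0253 and 0.00372), and lost the first call without any starved wild-type library or starved mutant replicate 2 or 3 (adjusted p 0.0612 to 0.115). Dapma7bEVm000197t1, also there, was lower between food levels by -3.12 (edgeR adjusted p = 0.0265), lost without starved mutant replicate 2 or 3 or nutrient-rich replicate 2 or 3 (adjusted p 0.0532 to 0.0969). Its libraries overlapped between food levels, with 28, 9 and 14 reads in starved mutants and 14, 188 and 134 in nutrient-rich mutants.

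Protease inhibitors of the serpin and pacifastin kind, which brake such cascades, moved in both directions, with 0 of 7 higher and 2 lower by edgeR between the lines (2 at an unadjusted p under 0.05, and the same counts by DESeq2) and 3 higher and 2 lower between food levels. Serpin B13 (Dapma7bEVm024046t1) was lower by -2.95 (edgeR adjusted p = 0.0157) and -3.12 (adjusted p = 0.00422), the first lost without starved wild-type replicate 1 or 2 or starved mutant replicate 2 or 3 (adjusted p 0.0568 to 0.0763). The leukocyte elastase inhibitor-like gene Dapma7bEVm010942t1 was lower by -1.73 (adjusted p = 0.0227) and -1.53 (adjusted p = 0.0149). Its first call was lost without any starved wild-type library or starved mutant replicate 2 or 3 (adjusted p 0.0649 to 0.116), its second without starved mutant replicate 3 (0.0658). The serpin 88Ea-like gene Dapma7bEVm010447t1 was higher between food levels by 2.80 (adjusted p = 0.0248; without nutrient-rich mutant replicate 2, 4.55 and 0.000777), lost without any 1 starved mutant or nutrient-rich replicate 1 (adjusted p 0.0550 to 0.0751).

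Peroxidases other than the peroxinectins numbered 40 tested genes, of which 2 were higher and 4 lower between the lines, and 10 higher and 7 lower between food levels. The 10 higher between food levels had log2 fold changes of 0.90 to 2.53 and the 7 lower ones -8.02 to -1.11. The genes of largest change, all lower, were chorion peroxidases, enzymes that harden the eggshell of insects. Dapma7bEVm004682t1 had 106 to 268 CPM in starved wild types, 34.5 to 36.1 in starved mutants and 71.3 to 95.1 in nutrient-rich mutants (log2 fold changes -2.38, edgeR adjusted p = 0.00244, and -1.27, adjusted p = 0.0125). With library totals as scaling its food call was lost (edgeR adjusted p = 0.0551). Dapma7bEVm015157t1 was lower by -3.47 (edgeR adjusted p = 0.0408) and -2.94 (adjusted p = 0.0314). Between food levels its libraries overlapped, with 7, 22 and 11 reads in starved mutants and 7, 92 and 131 in nutrient-rich mutants. Its first call was lost without any starved library or nutrient-rich replicate 3 (adjusted p up to 0.169), its second without any 1 library except nutrient-rich mutant replicate 1 (up to 0.107, and 0.0508 without nutrient-rich mutant replicate 2). On scaffold 469, Dapma7bEVm027728t1 and Dapma7bEVm002593t1 had 1 and 5 reads over the 3 starved mutant libraries together, and 7, 122 and 149, and 4, 124 and 186 reads in the nutrient-rich mutants (edgeR adjusted p = 0.00330 and 0.00791).

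Thioester proteins and macroglobulins, protease traps and opsonins, had 0 of 3 called by edgeR between the lines (none by DESeq2, and 1 at an unadjusted p under 0.05), while 2 of 3 were higher between food levels. The α-macroglobulin-like gene Dapma7bEVm000438t1 had 380 to 419 CPM in starved wild types, 517 to 594 in starved mutants and 129 to 199 in nutrient-rich mutants (log2 fold change between food levels 1.67, edgeR adjusted p = 0.000350), and Dapma7bEVm010800t1, named after C3 and PZP, was higher by 1.45 (adjusted p = 0.000890). Toll and IMD signalling had 0 of 14 genes called by edgeR between the lines (1 higher by DESeq2, and 2 at an unadjusted p under 0.05) and 3 higher between food levels, or 21.4%, a share near that of all features. Among the 3 were a spaetzle, the ligand of the Toll receptor (Dapma7bEVm004412t1, 2.40, adjusted p = 0.00247), and a dorsal-like factor downstream of it (Dapma7bEVm009874t1, 1.46, adjusted p = 0.00117). Melanin and amine synthesis had 0 of 5 called by edgeR between the lines (none by DESeq2 either, with 1 at an unadjusted p under 0.05) and 3 higher between food levels. The tyrosine hydroxylase gene Dapma7bEVm009554t1, whose product makes dopa, had 36.4 to 40.1 CPM in starved wild types, 47.3 to 67.5 in starved mutants and 4.27 to 9.05 in nutrient-rich mutants (3.1, SE 0.26, edgeR adjusted p = 0.000127), and a laccase (Dapma7bEVm002199t1), an enzyme that tans cuticle in insects, was higher by 1.55 (adjusted p = 0.000782).

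Galectins and other lectins outside the C-type family had 0 of 10 called by edgeR between the lines (0 by DESeq2, with 0 at an unadjusted p under 0.05) and 2 higher and 3 lower between food levels, with the 2 named galectin 1 on opposite sides (Dapma7bEVm011759t1 1.77, edgeR adjusted p = 0.00268, and Dapma7bEVm009595t1 -1.62, adjusted p = 0.0167, the latter lost without starved mutant replicate 2 or 3, adjusted p 0.0542 and 0.0693). Haemocyte and scavenger receptor genes, a list by name whose expression in blood cells was not checked, had 0 of 27 higher and 1 lower by edgeR between the lines (5 at an unadjusted p under 0.05, 0 higher and 2 lower by DESeq2) and 5 higher and 3 lower between food levels, or 29.6%. They summed to 3098 to 3318 CPM in starved wild types, 2747 to 3049 in starved mutants and 2021 to 2598 in nutrient-rich mutants, with 3, 2 and 4 of 34 genes at 0. Hemocytin (Dapma7bEVm004077t1), an adhesion protein of insect haemocytes, had 13.8 to 16.4 CPM in starved wild types, 6.08 to 7.51 in starved mutants and 15.3 to 21.5 in nutrient-rich mutants (log2 fold changes -1.12, edgeR adjusted p = 0.00745, and -1.47, adjusted p = 0.000744), and Dscam2 (Dapma7bEVm004994t1), an immunoglobulin receptor, was higher between food levels by 1.89 (adjusted p = 0.000700). In RNA of whole bodies, fewer cells of a type and less RNA in each cell cannot be told apart.

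Genes of other tissues moved with the groups as well. The 18 vitellogenins, the yolk precursors, summed to 36066 to 46909 CPM in starved wild types, 15792 to 17432 in starved mutants and 73054 to 96048 in nutrient-rich mutants, and 11 of 18 were lower between the lines. Trypsins and chymotrypsins, digestive enzymes of the gut, also serine proteases, summed to 8333 to 14580, 4172 to 7447 and 9591 to 14095 CPM, with 7 of 62 lower and 1 higher between the lines and 20 lower and 4 higher between food levels. The count between the lines depended on the processing. It was 23 lower and 1 higher by DESeq2, and 2 lower and 2 higher with library totals. Cuticle proteins had 45 of 130 higher and 12 lower between the lines and 49 higher and 16 lower between food levels, and summed to 7040 to 7422, 8261 to 10248 and 6991 to 10870 CPM. Between the lines DESeq2 called 65 of them higher and 15 lower. The part of these tissues in the differences of the lectins, clotting genes, peroxinectins and lysozymes was not tested.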

How the data were processed

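Whole-body RNA of 9 libraries was sequenced by the authors on Illumina instruments, and CLC Genomics Workbench served to map the reads to the genome of the species. The deposited table gives, for each of 47109 features with 42462 gene IDs, the count of total gene reads (not normalized) and the RPKM that the authors made with that software. As the software defines them, total gene reads include every read in a gene, while RPKM rests on exon reads. A deposited table for each of the authors' comparisons holds their own fold changes and FDR p-values, and these were not used. The count column of nutrient-rich mutant replicate 1 carries another name than its RPKM column and was matched by its sample title, and 0 per-sample columns were left unused.

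The test was that of edgeR 4.0.16 under R 4.3.3 (filterByExpr over 3 groups, TMM, quasi-likelihood F-test, 1 fit of all 9 libraries, Benjamini-Hochberg adjustment over 18675 features). The fold limit of 1.5 and the 0.05 level follow the paper, whose library totals and added constant were replaced by TMM. A gene ID with several features was represented by that with the highest mean count (17748 tested genes; 9 members have several features). SE is the log2 fold change divided by the square root of F. The procedure was tested on simulated data. Only features above a minimum level were changed there, so that test does not cover the calls of genes with few reads. Alternatives were the 6 libraries compared alone, DESeq2 1.42.0, library totals, RLE factors, no filter, a replicate block, summed features, each library left out in turn and, chosen after seeing the data, RPKM with limma 3.58.1 on log2(RPKM + 0.1) after division by the TMM factor.

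The members and gene lists were chosen with earlier results of these data known. After the table was seen, names with thioesterase, receptor-associated or deficiency were removed from the lists. Genes were named by a rule: per family, comparison and direction the 5 called genes of largest change, the 3 highest in RPKM, any called in opposite directions, and per pathway list up to 2 called genes per comparison; those chosen after their values were seen are marked. Scaffold numbers come from the feature identifiers. Sequences of the members are not shown, since 0 of 83 gene IDs were matched in the RefSeq gene table. With 3 libraries a group, the depth of each gene is given by its counts or CPM.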

Additional observations from a re-analysis of the deposited data

How the results depend on the processing

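Of 29 calls of the named members, 11 held in all 17 alternatives and 18 were lost in at least 1, in 0 cases with a change of sign. The losses given above for single genes are mainly those without a library, and other alternatives also ended some of these calls. With the 6 compared libraries alone, 1193 features were higher and 1400 lower between the lines (main result 546 and 791). In that setting 3 clotting genes, 2 lectins and 2 lysozymes were higher, and 5 peroxinectins and 4 lectins lower, while between food levels 1 lysozyme was higher and 1 clotting gene lower. Of all features 1421 were then higher and 1617 lower between food levels (main result 2078 and 2241). With DESeq2 788 features were higher and 1329 lower between the lines, with 1 clotting gene and 2 lysozymes higher and 5 lectins and 1 lysozyme lower. Between food levels DESeq2 called 2309 features higher and 2457 lower, with 2 peroxinectins higher. With library totals 626 features were higher and 589 lower between the lines, with 1 clotting gene higher, 2 clotting genes lower and 0 peroxinectins lower. Between food levels 3446 features were then higher and 1138 lower, with 1 clotting gene, 2 peroxinectins and 7 lectins higher and 0 clotting genes and 0 peroxinectins lower. Without the filter 1 peroxinectin and 1 lysozyme were lower between the lines, where 583 of all features were higher and 936 lower. With RPKM and limma, added after the data were seen, 2 peroxinectins were higher in each comparison and 1 clotting gene lower between food levels. Of all features 454 were then higher and 633 lower between the lines, and 2115 higher and 1901 lower between food levels. DESeq2, library totals and RPKM with limma each called 3 lysozymes higher between food levels. RPKM and counts differed by over 0.5 in log2 fold change in 5 of 48 members in each comparison, and in sign in 3 (lines) and 6 (food). The cause of these shifts was not tested.

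Leaving out each library in turn gave ranges between the lines of 220 to 1206 features higher and 285 to 1472 lower, 0 to 3 clotting genes higher and 1 to 4 lower, 0 to 3 peroxinectins lower, 0 to 2 lectins higher and 1 to 5 lower, and 1 to 2 lysozymes higher and 0 to 1 lower. Between food levels they were 0 to 2 clotting genes higher and 1 to 4 lower, 1 to 2 peroxinectins higher and 2 to 5 lower, 2 to 4 lectins higher and 3 to 8 lower, 1 to 3 lysozymes higher, and 1394 to 2778 features higher and 1533 to 2732 lower.

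Replicate numbers are shared between groups, and nothing in the labels says that a number marks a shared batch. Same-numbered libraries deviated from their group means with correlations of -0.06, -0.10 and -0.0076 between the lines and 0.13, 0.18 and 0.0073 between food levels. Libraries of unlike number had -0.09 to 0.15 and -0.18 to 0.13. Between food levels each starved mutant replicate had its highest value with its own number, by a narrow margin in replicates 1 and 3. These few values cannot decide on a pairing. The numbers were not taken to pair the samples, since no label gives a pairing. With the replicate block 410 features were higher and 626 lower between the lines and 1837 and 1977 between food levels, with 1 peroxinectin and 1 lectin lower between the lines and 1 lysozyme higher between food levels.

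Changes of sign were seen only in comparisons where the gene was not called. With library totals Dapma7bEVm005724t1 had 0.25 and Dapma7bEVm016077t1 0.29 between food levels, and Dapma7bEVm000927t1 0.013 and Dapma7bEVm014989t1 0.081 between the lines. With RPKM and limma the values were 0.031 for Dapma7bEVm016077t1 (food) and 0.031 for Dapma7bEVm014989t1 (lines). Leaving out each library in turn gave ranges between food levels of -0.23 to 0.057 for Dapma7bEVm005724t1, -0.28 to 0.12 for Dapma7bEVm016077t1, -0.13 to 1.29 for Dapma7bEVm006494t1 and -0.33 to 1.11 for Dapma7bEVm005703t1. Between the lines they were -0.21 to 0.045 for Dapma7bEVm000927t1, -0.13 to 0.081 for Dapma7bEVm014989t1 and -0.78 to 0.36 for Dapma7bEVm015767t1. Low counts limit the 35 members that could not be tested.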

Other observations

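For 2 peroxinectins the deposited counts and the RPKM gave different values. Dapma7bEVm000814t1, on scaffold 3147, had a log2 fold change between the lines of -0.85 from counts (not called) and of -1.81 from RPKM (limma adjusted p = 0.0359), and between food levels 1.03 and -0.09. Dapma7bEVm027752t1, on the same scaffold, had 1.53 and 1.68 between the lines, and 0.43 from counts and 1.42 from RPKM (limma adjusted p = 0.00331) between food levels. Both genes were chosen after their values were seen.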
